A study of Orestias ascotanensis with 42 samples.

Results

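The miR-204 and miR-211 microRNAs of Orestias ascotanensis, a small killifish of a high Andean salt pan, were read from small RNA libraries of skin, muscle and gills. A name was taken as a member when, without its species prefix, it was miR-204 or miR-211 with an optional letter, ending there or followed by a hyphen. This gave 7 of the 1342 names in the count tables, all of them miR-204 names, and 0 matched miR-211. The libraries came from 14 wild adult fish, 7 netted in the summer collection (January) and 7 netted in the winter collection (July). Each fish gave skin, muscle and gills, so that there were 42 libraries in 6 groups of 7. No pools, treatments or laboratory control fish were part of the design, all fish came from 1 site, and each season is a single collection date. The season of a library follows its treatment label, since all titles carry the word summer.

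miR-204 and miR-211 are closely related microRNAs that share the seed, the bases near the 5′ end through which a microRNA pairs with its target mRNAs. In mammals miR-204 is encoded in an intron of TRPM3, and miR-211 in an intron of TRPM1, a gene driven by the pigment cell regulator MITF. miR-204 is abundant in the pigment epithelium of the eye and acts in eye development of medaka, and miR-211 is abundant in melanocytes. Each is cut from a hairpin precursor that gives a 5p and a 3p arm, and one arm is usually far more abundant than the other.

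Of the 7 names, 5 had at least 1 read, and these formed 3 read profiles, a profile being a set of names whose counts matched within 5%. The names miR-204, miR-204-5p and miR-204a had identical counts, with 1175872 reads over all libraries, and are given below as miR-204, the main arm. The opposite arm, miR-204-3p, had 1237 reads, with a read in 37 libraries and at least 10 reads in 14, which were the skin libraries. The variant miR-204b had 1222 reads, with a read in 40 libraries and at least 10 in 18. All of these fell on the tetraodon entry of that name, while the entry of another species had 0 reads in every library. miR-204-3-3p and miR-204-4-3p had 0 reads in every library, which allows up to 3 reads in each and covers counting error only. Against the 1175872 reads of miR-204, both minor members are rare, and near-identical copies could share their reads, so both are uncertain as separate molecules.

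The libraries differed in depth and in composition. With 1 name per read profile, the total was 3433117 to 12259139 counts in skin, 5199060 to 16819834 in muscle and 201199 to 10606288 in gills. This total is called all reads below, but it is not the number of sequenced reads, since 1 read can match several names. The shallowest 2 libraries were gills summer 4 and gills winter 2. The miR-10 family, encoded in Hox gene clusters, took 43.8 to 75.7% of the total in skin, 85.1 to 93.4% in muscle and 11.6 to 53.2% in gills. A share of all reads in muscle is therefore a share of a total that 1 family fills. TMM scaling, which sets the bulk of the names to the same level in every library, used factors of 0.910 to 1.97 in skin, 0.159 to 0.678 in muscle and 1.68 to 3.69 in gills. With TMM scaling miR-133a, a muscle microRNA, was highest in the libraries labelled muscle. It averaged 1999 TMM-scaled CPM (reads set to a common library size) in skin, 13955 CPM in muscle and 106 CPM in gills. This is 1 name under 1 scaling and does not show how much muscle the skin libraries held. The order of skin and muscle in muscle names depends on the scaling, as given below.

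Of the 3 tissues sequenced, skin had the highest levels of miR-204. In the 7 summer skin libraries it had 1107 CPM at the lowest, 1930 CPM at the median and 4817 CPM at the highest, and in the 7 winter skin libraries 1066, 3592 and 4781 CPM. Muscle had 174, 341 and 475 CPM in summer and 197, 280 and 1114 CPM in winter. Gills had 96.2, 136 and 220 CPM in summer and 103, 153 and 337 CPM in winter. Every skin library lay above every gill library. All skin libraries but skin winter 3 (1066 CPM) and skin summer 3 (1107 CPM) lay above every muscle library, and those 2 lay just under muscle winter 3 (1114 CPM) alone. Muscle and gill libraries overlapped.

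**Figure D1:**
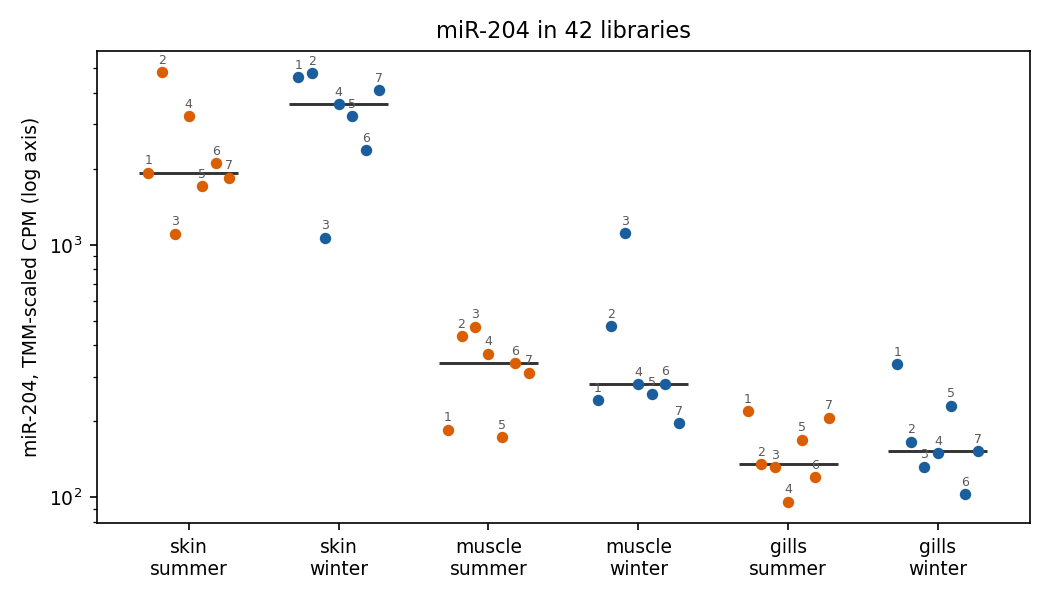
TMM-scaled CPM of miR-204 on a log axis, for the 6 tissue and season groups of 7 libraries each. Points are libraries with their replicate number and bars are group medians; the skin libraries sit between 1066 and 4817 CPM and the gill libraries between 96.2 and 337 CPM.

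Over the 14 fish, miR-204 averaged 2891 ± 1336 CPM in skin, 367 ± 237 CPM in muscle and 168 ± 63.5 CPM in gills (SD, n = 14 libraries each). In skin it took 1.18 ± 0.598% of the total with 1 name per read profile, from 0.487 to 2.54%. The percentages depend on that total: with the sum over all names, the mean log2 share in skin was -1.53 against 0.08. Its rank among read profiles in skin ran from 7 to 23 with a median of 13. In muscle it took 0.0337 ± 0.0213% and its ranks ran from 25 to 53, with a median of 48. In gills it took 0.126 ± 0.0514% and its ranks ran from 50 to 83, with a median of 70.5. By median share miR-204 stood at position 14 in skin, between miR-2184 and miR-133a, at position 47 in muscle, between let-7b and miR-199-3p, and at position 68 in gills, between miR-103 and miR-144-5p. Differences from these neighbours were not tested, and the order varied between libraries. miR-2184 exceeded miR-204 in 6 of 14 skin libraries, let-7b in 4 of 14 muscle libraries and miR-103 in 7 of 14 gill libraries. The names next below, miR-133a, miR-199-3p and miR-144-5p, exceeded miR-204 in 5, 7 and 8 of 14 libraries of the same tissues.

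Within fish the excess of skin over gills held in all animals. The ratio of TMM-scaled levels, skin over gills, was 8.04 to 35.5 with a median of 15.8, and it was above 1 in 14 of 14 fish. The edgeR quasi-likelihood fit did not pair the tissues of a fish, and was adjusted by Benjamini-Hochberg over the 525 names tested. In it miR-204 was higher in skin than in gills by 4.09 ± 0.28 on the log2 scale (SE, 95% interval 3.53 to 4.64, edgeR adjusted p = 4.59e-17). Of all names, 25.7% were higher and 28.8% lower in skin than in gills by the same rule, so passing the test was common. As a share of all reads the ratio was 3.42 to 39.3, and the log2 difference of 3.18 held in 14 of 14 fish (exact permutation test by sign changes within fish, two-sided, p = 0.000122, the smallest that 14 pairs can give, adjusted 0.000529 over 26 tests of single values).

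Skin also exceeded muscle. The ratio of levels, skin over muscle, was 0.957 to 20.7 with a median of 9.93, above 1 in 13 of 14 fish. The exception was winter fish 3, with 1066 CPM in skin against 1114 CPM in muscle, the lowest skin and the highest muscle value of the study. miR-204 was higher in skin by 2.96 ± 0.26 on the log2 scale (SE, 95% interval 2.44 to 3.49, edgeR adjusted p = 1.67e-13). Of all names, 34.7% were higher and 32.4% lower in skin than in muscle. As a share of all reads skin was higher in 14 of 14 fish, by 5.89 to 92.4 times, with a log2 difference of 5.16 (exact permutation p = 0.000122, adjusted 0.000529).

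The order of muscle and gills depends on the scaling. With TMM scaling miR-204 was higher in muscle by 1.12 ± 0.25 on the log2 scale (SE, 95% interval 0.63 to 1.62, edgeR adjusted p = 7.78e-05), with a muscle over gills ratio of 0.719 to 8.40, a median of 2.30 and 12 of 14 fish above 1. With library totals alone it was lower in muscle, by a log2 difference of -2.41 (edgeR adjusted p = 2.00e-11), and as a share of all reads muscle was lower in 14 of 14 fish (log2 difference -1.98, exact permutation p = 0.000122, adjusted 0.000529). Once the reads of the miR-10 family were taken out of the total, the share was 3.00 ± 1.15% in skin, 0.335 ± 0.193% in muscle and 0.161 ± 0.0476% in gills, and muscle was above gills again in 12 of 14 fish (log2 difference 0.96, exact permutation p = 0.00134). Rank among profiles, which needs no total, placed miR-204 higher in muscle than in gills in 14 of 14 fish (exact permutation p = 0.000122). A rank is relative to the other names, so it does not settle the order of the level in muscle and gills. Of all names, 37.5% were higher and 39% lower in muscle than in gills with TMM scaling.

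Totals alone moved the median of all names to -1.07 for skin minus gills, 2.39 for skin minus muscle and -3.49 for muscle minus gills, against -0.003, 0.11 and -0.10 with TMM scaling. Relative to that median, the log2 difference of miR-204 was 4.09 with TMM scaling and 4.06 with totals alone for skin minus gills. For skin minus muscle it was 2.85 and 3.01, and for muscle minus gills 1.22 and 1.08. Subtracting the median takes out most of any change of scaling by construction, so these values describe miR-204 relative to the other names and are no check of its order in muscle and gills.

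**Figure D2:**
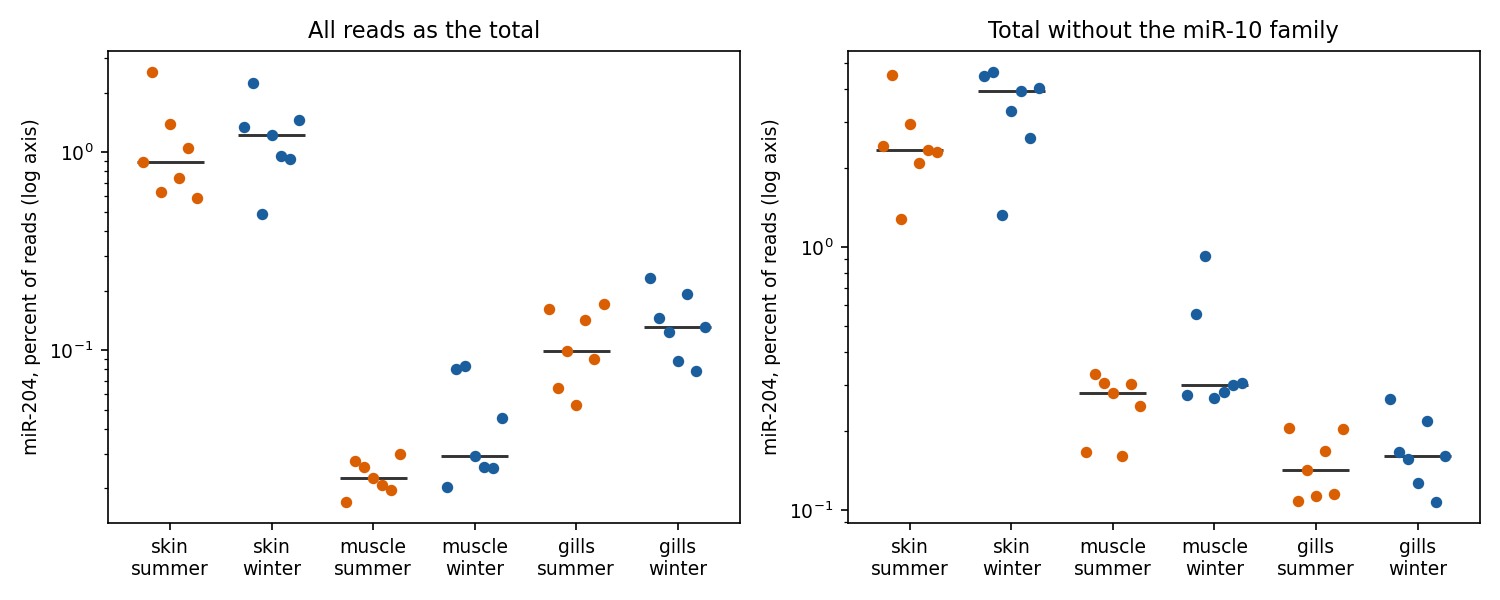
Share of miR-204 in percent of reads on log axes, with all reads as the total (left) and with the miR-10 family left out of it (right), for the 6 groups of 7 libraries; points are libraries and bars are medians. Muscle lies below gills on the left, with means of 0.0337% in muscle and 0.126% in gills, and above gills on the right, with means of 0.335% in muscle and 0.161% in gills.

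The minor members were low in every tissue and had the same order, skin highest. miR-204-3p had 13 to 491 reads per skin library, 1 to 8 per muscle library and 0 to 7 per gill library. It was higher in skin than in gills by 5.02 ± 0.46 and higher in skin than in muscle by 3.00 ± 0.42 on the log2 scale (SE, edgeR adjusted p = 6.69e-13 and 2.34e-08). For muscle minus gills the difference was 2.02 ± 0.50 (edgeR adjusted p = 0.000372), and with totals alone it turned to -1.27. miR-204b had 17 to 225 reads per skin library, 0 to 8 per muscle library and 0 to 19 per gill library. It was higher in skin than in gills by 3.66 ± 0.31 and higher in skin than in muscle by 2.82 ± 0.31 (SE, edgeR adjusted p = 1.10e-13 and 1.01e-10). Its muscle minus gills difference of 0.85 ± 0.34 passed (edgeR adjusted p = 0.0248) but missed the threshold with the fish as a block (0.70, adjusted p = 0.0768) and turned to -2.55 with totals alone.

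Lists of microRNAs known from a cell type, with 1 name per read profile, show what else differed between the tissues. Their counts are read against the shares of all 525 names tested, overlapping names included. These were 25.7% higher and 28.8% lower in skin than in gills, and 34.7% higher and 32.4% lower in skin than in muscle. With totals alone these shares were 13.7% higher and 69.7% lower against gills, and 82.5% higher and 8.19% lower against muscle. A fit with 1 name per read profile had 86 of 291 higher and 73 lower against gills. Against muscle it had 110 higher and 82 lower.

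The skeletal muscle list was the only list with every name higher in skin than in gills, as miR-204 was. All 8 (of the miR-1, miR-133, miR-206 and miR-499 families) were higher in skin than in gills under both scalings, with a median log2 difference of 3.89 against -0.003 for all names. Set against muscle they went the other way from miR-204, with 0 of 8 higher and 5 lower in skin, and with totals alone 4 higher and 2 lower. Their summed level was 2594 to 4436 CPM in summer and 2377 to 6424 CPM in winter skin libraries, against 131 to 222 CPM in summer and 111 to 233 CPM in winter gill libraries. The muscle libraries had 20521 to 29917 CPM of these names in summer and 8737 to 31962 CPM in winter. Whether these names have a part in the skin excess of miR-204 was not tested. In bulk tissue, more cells of a type and more of a microRNA per cell cannot be told apart.

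A list of microRNAs reported to act on pigment cell regulators, with all lettered relatives of each included, gave 21 names. The relatives were not each reported to act so, and a family such as miR-137 counts more than once. Of the 21 names, 0 were higher and 11 lower in skin than in gills, with a median log2 difference of -0.45. With totals alone 0 were higher and 20 lower. With RLE scaling, another way to set libraries level, 2 were higher and 11 lower, where 27% of all names were higher and 25.9% lower. miR-145-5p averaged 21.8 CPM in skin, 42.7 CPM in muscle and 63.9 CPM in gills, with a skin minus gills difference of -1.56 ± 0.26 (SE, edgeR adjusted p = 2.24e-06). miR-182, reported to repress MITF in melanoma, did not pass, at -0.01 ± 0.23 (edgeR adjusted p = 0.986). miR-137, which represses MITF in mammals, averaged 0.202 CPM in skin and 0.888 CPM in gills and passed at -2.29 ± 0.39 (SE, edgeR adjusted p = 2.49e-06), while the overlapping name miR-137b, with the same 0.202 CPM in skin and 0.244 CPM in gills, did not, at -0.45 ± 0.33 (adjusted p = 0.253). Against muscle, 11 of the 21 were higher and 7 lower in skin, and with totals alone 17 and 3. The 3 that exceeded muscle by most, miR-203b-3p, miR-429-3p and miR-429a, also stand in the epithelial list. Those names and miR-203, which is in the epithelial list too, were among the 11 lower in skin than in gills. Many names of this list are expressed in other cell types as well, and miR-340 did not pass the filter on low counts.

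Of the 8 names of the eye and sensory list, 3 were higher and 2 lower in skin than in gills, and 3 were higher and 5 lower in skin than in muscle. With totals alone the counts were 0 higher and 5 lower against gills, and 5 higher and 2 lower against muscle. miR-184b, of a family known from the cornea, averaged 3759 CPM in skin, 224 CPM in muscle and 1815 CPM in gills, and was higher in skin than in gills by 1.05 ± 0.24 on the log2 scale (SE, edgeR adjusted p = 0.000166). miR-124-3p, a neuronal microRNA, went the other way, with 0.356 CPM in skin, 3.51 CPM in muscle and 1.22 CPM in gills, and a skin minus gills difference of -1.86 ± 0.31 (edgeR adjusted p = 1.41e-06). miR-183, known from sensory cells, averaged 507 CPM in skin and 2454 CPM in muscle, a difference of -2.25 ± 0.27 with TMM scaling (edgeR adjusted p = 8.74e-10). The size of this difference depends on the scaling. For skin minus muscle the median of all names was 0.11 with TMM scaling and 2.39 with totals alone.

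Of 9 epithelial and keratinocyte names, 0 were higher and 7 lower in skin than in gills, and 9 were higher in skin than in muscle. Of 13 neural names, 5 were higher and 4 lower in skin than in gills, and 3 were higher and 10 lower in skin than in muscle. With totals alone the neural counts were 2 and 7 against gills and 5 and 7 against muscle. Lower in skin than in gills were 3 of 3 red blood cell names, 3 of 5 white blood cell names and 2 of 3 endothelial and smooth muscle names, and 0 of these 3 lists' names were higher.

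The names with the pattern most like miR-204 were found by the root mean square difference of the 6 group means of log2(CPM + 1), each name centred on its own mean, among 296 read profiles. Apart from miR-204b and miR-204-3p, which as members were left out, miR-2184 was nearest, at 0.633 log2 units, and averaged 2537 ± 672 CPM in skin, 406 ± 245 CPM in muscle and 389 ± 120 CPM in gills (SD, n = 14). Next came miR-132d at 0.875, miR-202-5p at 1.05, miR-499-3p at 1.07 and miR-202 at 1.11. miR-132d averaged 11.9 CPM in skin, 4.84 CPM in muscle and 2.19 CPM in gills, and miR-499-3p 3.69, 1.79 and 0.305 CPM. miR-202-5p averaged 7.84 ± 10.2 CPM and miR-202 5.49 ± 7.15 CPM in skin, a spread above the mean (SD, n = 14). In muscle they had 0.226 and 0.204 CPM, and in gills 0.0466 and 0.0428 CPM. The added 1 shrinks differences of names at a few CPM, and the member miR-204b itself lay at 1.02. With totals alone 2 of the 5, miR-2184 and miR-132d, were still among the 5 nearest.

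The seasonal comparison asks whether the summer fish differ from the winter fish within a tissue. miR-204 passed it in none of the 3 tissues. In skin it averaged 2391 ± 1245 CPM in summer and 3391 ± 1317 CPM in winter (SD, n = 7 each), and the log2 difference, summer minus winter, was -0.46 ± 0.33 (SE, 95% interval -1.15 to 0.24, edgeR adjusted p = 0.714). In muscle it averaged 328 ± 115 CPM in summer and 407 ± 324 CPM in winter, with a difference of -0.47 ± 0.36 (95% interval -1.24 to 0.30, adjusted p = 0.408). In gills it averaged 154 ± 46.0 CPM in summer and 182 ± 78.6 CPM in winter, with a difference of -0.33 ± 0.27 (95% interval -0.90 to 0.25, adjusted p = 0.844). The groups overlapped in each tissue, and the intervals allow a fall of over 1 log2 unit in summer in skin and muscle. Without muscle winter 3 the muscle difference was 0.064, so that its direction with TMM scaling rests on that library. With totals alone and all libraries it was -0.92.

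Few names passed the seasonal test at all in the body surfaces. By edgeR these were 0.629% of 477 names in skin and 0.217% of 460 in gills, that is 3 names and 1 name, while 13.8% of 427 names passed in muscle. A batch label from 1 to 7, equal to the number of the fish, runs through both collections. With it as a block 8 names passed in skin and 2 in gills, and miR-204 was at -0.48 ± 0.20 in skin (SE, adjusted p = 0.252), -0.23 ± 0.24 in muscle and -0.28 ± 0.18 in gills, none past the threshold.

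The share of all reads gave a smaller p in muscle than the model did. There miR-204 took 0.0171 to 0.0298% in summer, with a median of 0.0225%, and 0.0204 to 0.0828% in winter, with a median of 0.0290%. The log2 difference was -0.73, lower in summer in 7 of 7 same-numbered pairs (exact permutation p = 0.0472, adjusted 0.0944 over 26 tests; exact p = 0.0156 by sign changes within pairs, the smallest that 7 pairs allow). With the sum over all names as the total the exact p was 0.0589, and without the miR-10 family it was 0.0973. In skin the share difference was -0.19 (exact permutation p = 0.619) and in gills -0.37 (exact permutation p = 0.279). Summer was higher in 4 of 7 same-numbered pairs in skin and in 2 of 7 in gills. Without the miR-10 family the skin difference was -0.43, with summer higher in 0 of 7 pairs (exact permutation p = 0.199883). With that total, summer was higher in 2 of 7 pairs in muscle and in 2 of 7 in gills. The count of pairs in skin and muscle thus depends on the total.

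An interaction term over the 42 libraries compared the seasonal change of one tissue with that of another. For miR-204 it was -0.27 ± 0.49 for skin against gills, -0.19 ± 0.49 for skin against muscle and -0.08 ± 0.49 for muscle against gills (SE, edgeR adjusted p = 0.974, 0.966 and 0.984). Of all names, 0.762%, 2.29% and 1.9% passed these 3 tests. The intervals, of about 1 log2 unit either way, are wide: -1.25 to 0.71, -1.17 to 0.79 and -1.06 to 0.90. Neither minor member passed an interaction test.

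**Figure D3:**
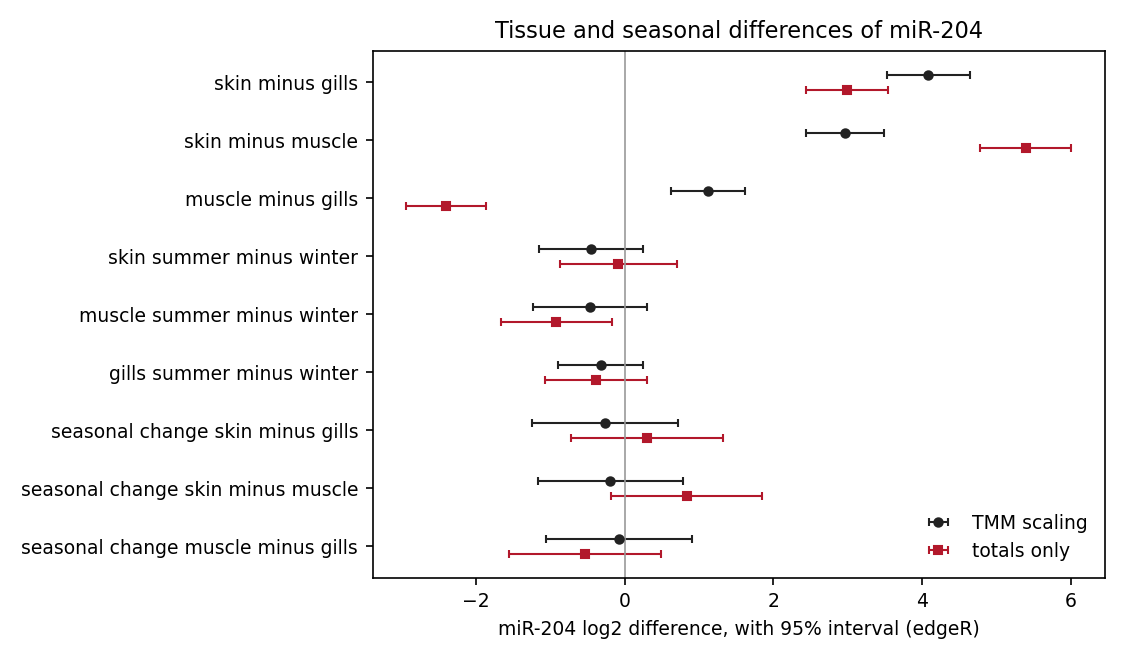
Log2 differences of miR-204 from edgeR with 95% intervals, for the 3 tissue comparisons, the 3 seasonal comparisons and the 3 differences in seasonal change, with TMM scaling (circles) and with library totals alone (squares). Skin exceeds gills and muscle under both, muscle minus gills is 1.12 with TMM scaling and -2.41 with totals alone, and every seasonal interval with TMM scaling includes 0.

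miR-204 varied between fish more than most microRNAs of skin. The SD of its log2 level within a season was 0.721 in skin, where 26 of 177 read profiles with at least 4200 reads had a larger one and the median was 0.470. In muscle the SD was 0.722 (45 of 177 larger) and in gills 0.496 (92 of 177 larger). Some of the extreme levels had the same number in both collections. Number 2 gave the highest skin level in summer, at 4817 CPM, and in winter, at 4781 CPM. Number 3 gave the lowest skin level in summer, at 1107 CPM, and in winter, at 1066 CPM, and the highest muscle level in summer, at 475 CPM, and in winter, at 1114 CPM. The highest gill level was that of number 1 in both collections, at 220 CPM in summer and 337 CPM in winter. The lowest muscle level was that of number 5 in summer and number 7 in winter, and the lowest gill level that of number 4 in summer and number 6 in winter. These are different fish that share a batch label, and no source used here says what a number shares.

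Between tissues of a fish, levels of miR-204 showed no relation that passed. Over 14 fish Pearson's r was 0.221 for skin with gills (Spearman's rho 0.191), -0.317 for skin with muscle (rho -0.055) and -0.400 for muscle with gills (rho -0.556), with permutation p of 0.450, 0.275 and 0.157 for r, adjusted to 0.450, 0.413 and 0.413 over the 3 relations, and 0.511, 0.856 and 0.0428 for rho. Without the 2 fish farthest from the median of the first tissue, r was 0.0842, 0.448 and -0.462. Within the 7 summer fish r was -0.339, 0.224 and -0.643 in the same order (permutation p = 0.458, 0.649 and 0.128), and within the 7 winter fish 0.511, -0.752 and -0.325 (permutation p = 0.248, 0.0871 and 0.433).

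The ratio of a minor member to miR-204 needs no library total. Pooled over libraries, miR-204-3p had 1.10 reads per 1000 miR-204 reads in skin (95% Wilson interval 1.04 to 1.17), 0.975 in muscle (0.731 to 1.30) and 0.455 in gills (0.329 to 0.630). The skin value rests in part on number 4. In skin summer 4 there were 491 reads of the 3p arm, or 2.88 per 1000, and in skin winter 4 there were 109 reads, or 2.24 per 1000. The other skin libraries lay between 0.459 and 0.979 per 1000, and without both libraries of number 4 the pooled skin value was 0.669 (0.615 to 0.726). The interval in gills overlaps this one. The pooled muscle and gill values still include number 4, and rest on 46 and 36 reads of the 3p arm, so the order of the tissues is uncertain. Every muscle and gill library had under 10 reads of this arm, so its ratio was not tested between tissues. In skin the arm ratio did not differ by season past the threshold (log2 difference -0.13, exact permutation p = 0.730).

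The miR-204b ratio separated the seasons in skin. This comparison was not in the plan of tests and was added with results of these data known, so its p-values describe an added contrast. Per 1000 reads of miR-204, the summer skin libraries had 1.20, 1.17, 1.20, 1.15, 1.01, 1.14 and 1.15 reads of miR-204b, and the winter skin libraries had 0.794, 0.982, 0.628, 0.924, 0.946, 0.918 and 0.810, in the order of numbers 1 to 7. The lowest summer library, at 1.01 from 27 reads of miR-204b, lay just above the highest winter library, at 0.982 from 136 reads. The groups did not overlap in these values, but the counting error of a single library was not taken into account. The log2 difference, summer minus winter, was 0.43 and held in 7 of 7 same-numbered pairs (exact permutation test over all arrangements of 7 against 7, two-sided, p = 0.000583, the smallest it can give, adjusted 0.00216 over 26 tests). It lay between 0.36 and 0.46 without any 1 skin library, and at 0.47 per read of the miR-204 entry that most species share. Sign changes within numbers gave an exact p of 0.0156, the smallest that 7 pairs allow.

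The counts behind this ratio were small. Each summer skin library held 27 to 225 and each winter skin library 17 to 136 reads of miR-204b. Pooled, summer had 1.16 per 1000 (95% Wilson interval 1.07 to 1.25) and winter 0.876 (0.797 to 0.963). In muscle the pooled ratio was 1.45 (1.00 to 2.09) in summer and 0.861 (0.579 to 1.28) in winter. In gills it was 1.13 (0.887 to 1.45) in summer and 1.31 (0.925 to 1.86) in winter, and in both tissues the intervals overlapped. The level of miR-204b itself did not pass in skin, at -0.06 ± 0.37 on the log2 scale (SE, edgeR adjusted p = 0.998). Whether reads of miR-204b are a separate gene product or altered reads of miR-204 cannot be told from these counts.

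**Figure D4:**
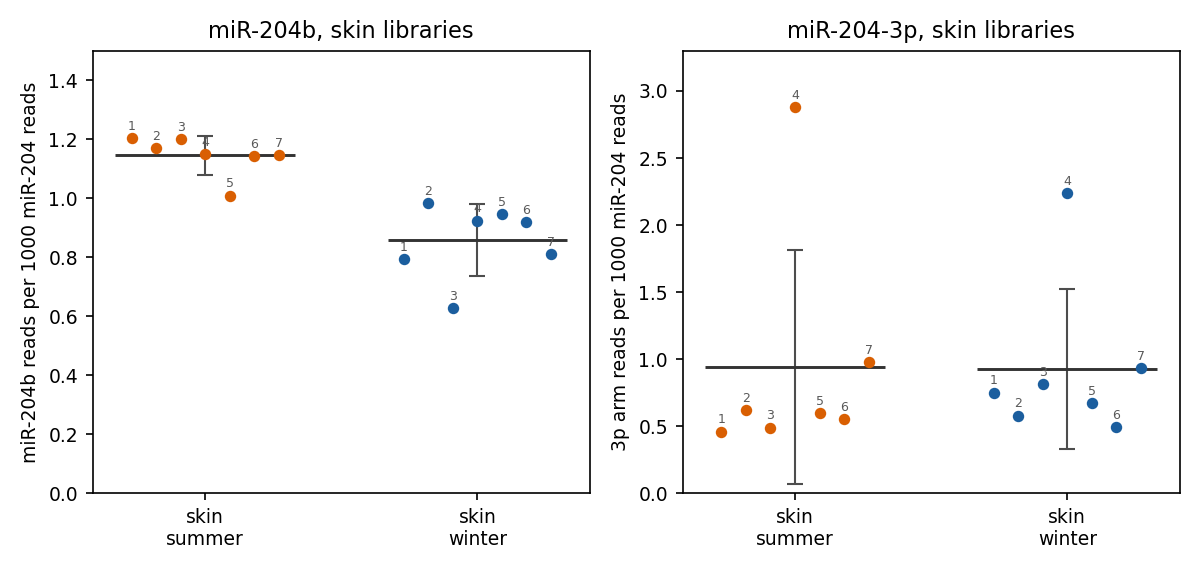
Reads of miR-204b (left) and of the 3p arm miR-204-3p (right) per 1000 reads of miR-204 in the 7 summer and 7 winter skin libraries; points are libraries with their number, bars the mean and SD. The summer values of miR-204b run from 1.01 to 1.20 and the winter values from 0.628 to 0.982, and number 4 gives the highest 3p value in both seasons.

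The 39 entries of the members, each a mature name on a precursor of 1 of 12 fish species, did not all count the same reads. Of 31 entries that count the main arm, 4 had the full 1175872 reads, 25 had 1055648 to 1055976 and 2 had 1037283 and 1037620. The 4 highest were those of medaka, fugu, tetraodon and the zebrafish precursor numbered 1. The reads that counted in these 4 but not in the common entry were 11.03 ± 2.64% of the miR-204 reads in skin, 13.2 ± 3.79% in muscle and 9.39 ± 2.64% in gills (SD, n = 14). This percentage was 3.81 points higher in muscle than in gills, in 12 of 14 fish (exact permutation p = 0.00220, adjusted 0.00714), and 1.64 points higher in skin than in gills, in 11 of 14 (exact p = 0.00769, adjusted 0.0200). For skin minus muscle the difference was -2.18 points, with skin higher in 2 of 14 (exact p = 0.0267, adjusted 0.0632).

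By season this share was 12.2 ± 2.62% in summer and 9.82 ± 2.19% in winter skin (SD, n = 7 each), higher in summer in 7 of 7 same-numbered pairs by 2.41 points on average. The exact permutation p was 0.0828 without the number as a block (adjusted 0.154) and 0.0156 with it, the smallest that 7 pairs allow. In muscle the difference was 2.26 points (exact permutation p = 0.280) and in gills 1.31 points (exact p = 0.390).

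Number 4 stood apart here as well. The lowest entries, on a zebrafish and a catfish precursor, both numbered 3, lacked a small part of the reads of the common entry: 1.32 ± 1.41% in skin, 0.882 ± 0.485% in muscle and 4.69 ± 11.1% in gills (SD, n = 14). In skin this was 4.52% in summer 4 and 4.62% in winter 4, against 0.442 to 1.39% in the other 12 libraries. In gills it was 42.7% in summer 4, a library with 106 miR-204 reads, and 7.09% in winter 4, against 0.363 to 2.64% in the others. Muscle of the same fish had 1.48% in summer and 0.799% in winter, within the range of the other muscle libraries, 0.301 to 1.86%. 

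**Figure D5:**
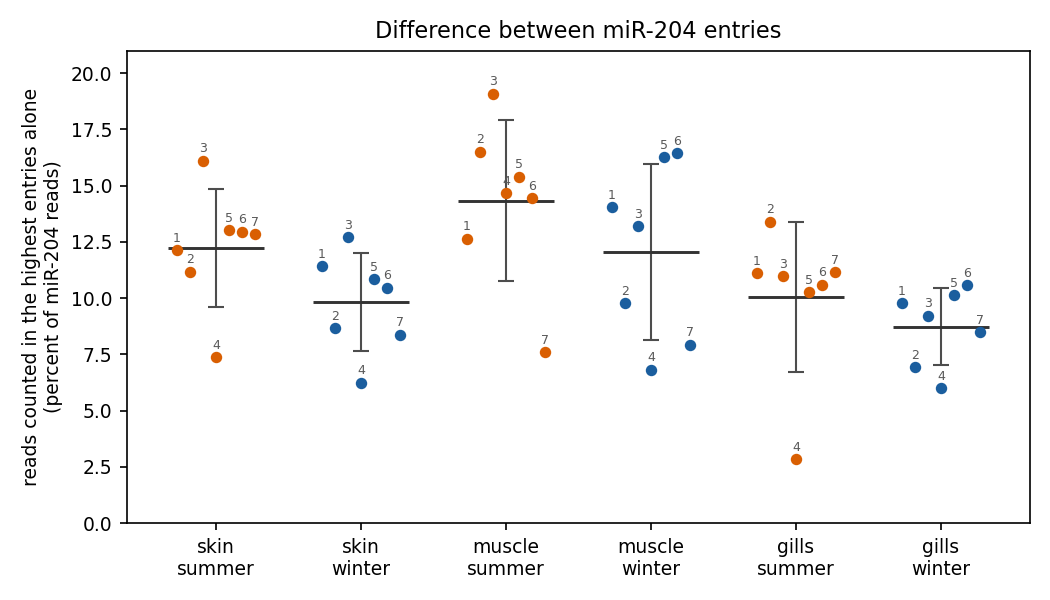
Percent of miR-204 reads counted in the 4 highest entries but not in the common entry, for the 6 groups of 7 libraries. Points are libraries with their number, bars the mean and SD; the means are 11.03% in skin, 13.2% in muscle and 9.39% in gills over both seasons, and gills summer 4, with 106 miR-204 reads, is lowest at 2.83%.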

How the data were processed

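Small RNA of skin, muscle and gills from 14 fish was made into TruSeq small RNA libraries after gel size selection, and read 1 was used, per the labels' protocols. The deposited tables hold whole-number read counts per mature miRNA and precursor, and CPM values scaled to the library, per the file headers; the CPM values were not used in tests. The aligner, the release of miRNA names and filters are not stated in the sources used here. Names overlap, since 1 read can match several of them. For each name, stripped of its species prefix, the highest entry of a library was kept, which gave 1342 names, 672 with a read.

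The tests across names used edgeR 4.0.16 (R 4.3.3): a quasi-likelihood fit with TMM scaling, after filterByExpr at a count of 10 and a total of 15, with calls at an adjusted p under 0.05. Tissues and interactions were fitted over 42 libraries in 6 groups, without pairing the tissues of a fish, and seasons over the 14 libraries of a tissue. The script was tested on simulated data. Totals for shares use 1 name per read profile, that is, names whose counts match within 5%. Intervals of pooled ratios are 95% Wilson intervals and cover counting error only, since reads carry no molecular identifiers. Single values were compared by exact permutation tests, 26 in 1 adjusted family, and correlations with 100000 resamples. Alternatives were RLE scaling, totals only, DESeq2 1.42.0, no filter, other ways to sum entries, a replicate block and leaving out each library. The members, lists and tests were chosen with earlier results of these data known. Tests of the miR-204b ratio, of rank and of the differences between entries were not in the plan and were added. All member names with a read are named; the names most alike follow the distance given with them, and list members shown with values were picked after these were seen.

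Since the labels name the number 1 to 7 a batch, it was treated as a pairing of the collections. Libraries with the same number, each less its group mean, correlated over names with medians of 0.718 in skin (-0.431 to 0.852), 0.0907 in muscle (-0.302 to 0.646) and 0.634 in gills (-0.390 to 0.774). Tissues of a fish come from the same animal. Their correlations had medians of 0.163 for skin and gills (-0.476 to 0.571) and 0.132 for skin and muscle (-0.254 to 0.602). For muscle and gills the median was 0.0889 (-0.401 to 0.373). Of 126 pairs of libraries within groups, 0 were identical, with a lowest chi-square per degree of freedom of 42.4. One table held 71 further entries, not used. Sequences are not shown here.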

Additional observations from a re-analysis of the deposited data

Results flagged for a closer look

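Several measures were screened in the same groups of 7 libraries, which gave 28 sets of 7 values. The sets share libraries and counts, so they are not independent. In 11 sets the gap of the highest or lowest library to its neighbour took up most of the range, past the 95% limit of Dixon's test. Chance passes this limit in about 1 of 20 sets of normal values, and normality was not tested. In levels, these were muscle winter 3, with 1114 CPM of miR-204 against 476 CPM in the next library, and skin summer 2, where miR-204 took 2.54% of reads against 1.39% in the next.

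Of the 11 values, 7 were of number 4. The 3p arm had 2.88 reads per 1000 miR-204 reads in skin summer 4 and 2.24 in skin winter 4. The percentage of reads missing from the lowest entries was 4.52% in skin summer 4, 4.62% in skin winter 4, 42.7% in gills summer 4 and 7.09% in gills winter 4. Gills summer 4, with 106 miR-204 reads, also had the lowest percentage counted in the highest entries alone, 2.83%.

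The remaining ones were muscle winter 7, with 1.73% of reads missing from the lowest entries, and skin summer 5, with 1.01 reads of miR-204b per 1000 miR-204 reads, the lowest of the summer skin libraries.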

How the results depend on the processing

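miR-204 kept its direction and stayed past the threshold for skin minus gills (2.99 to 4.31 over the alternatives, 3.94 to 4.18 without any 1 library) and for skin minus muscle (2.84 to 5.40, and 2.87 to 3.25). Muscle minus gills turned round with totals only for miR-204 (-2.41), miR-204b (-2.55) and miR-204-3p (-1.27), and was 0.82 to 1.18 for miR-204 without any 1 library. As a share it was 0.96 without the miR-10 family. miR-204b lost this call (0.62 to 0.73) without any 1 of 13 libraries, with an adjusted p of up to 0.0992.

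No seasonal call of miR-204 changed. Without any 1 library its seasonal difference was -0.73 to -0.34 in skin, -0.58 to 0.064 in muscle and -0.47 to -0.14 in gills; only muscle winter 3 turned it. The seasonal change of skin against gills turned to 0.30 (totals only) and 0.066 (sum over distinct entries), that of skin against muscle to 0.83 (totals only), and that of muscle against gills to 0.055 (no filter), 0.23 (sum over distinct entries), 0.090 (1 name per profile) and 0.16 (without the miR-10 family). Without any 1 library these were -0.54 to -0.07, -0.63 to 0.033 (turned by skin winter 1) and -0.37 to 0.35 (turned by muscle winter 3 or muscle summer 5). In skin, miR-204b turned to 0.30 and miR-204-3p to 0.072 with totals only. Without any 1 library they ran from -0.34 to 0.059 and from -1.12 to 0.12 (turned by skin winter 4); all were short of the threshold. The log2 share of miR-204 in muscle, summer minus winter, was -0.73 in the main setting, where it did not pass after adjustment. It was -0.72 with all names as the total and -0.59 without the miR-10 family.

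With 1 name per profile (fewer names tested), 159, 192 and 218 passed for skin minus gills, skin minus muscle and muscle minus gills, and 31 (main 59) in muscle by season; with totals only, 438 passed for skin minus gills and 92 in muscle by season. In gills by season (main 1), 6 passed with no filter, DESeq2 or all 42 libraries in the fit, 4 with the median entry or without the gill libraries under 2000000, and 2 with the sum over entries, 1 name per profile or the replicate block. In skin by season (main 3), 7 passed with DESeq2, 8 with the replicate block and 9 with all 42 libraries. The entry difference for skin minus muscle was -1.84 points without the fish of the low gill libraries (exact permutation p = 0.0645, unadjusted). That of skin by season, 2.41 points, had an unadjusted exact permutation p of 0.0156 with the replicate block, the smallest that 7 pairs allow. Without the block its exact permutation p was 0.154 after adjustment. Summing distinct entries lowered the median of 3p arm reads per 1000 in each tissue, since main arm entries are then added more than once. It was 0.418 in muscle against 1.19, 0.211 in skin against 0.645 and 0.114 in gills against 0.348. The causes of the other changes were not tested. The 3p arm had under 10 reads in every muscle and gill library, and miR-204b in most of them, which limits the precision of their values there.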
